A study of Homo sapiens with 12 samples.

Results

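Serine synthesis and one-carbon metabolism were examined through the transcripts of 9 enzymes, of 58233 genes in the tables: PHGDH, PSAT1, PSPH, SHMT1, SHMT2, MTHFD1, MTHFD2, MTHFD1L and ALDH1L2. They were chosen by gene symbol for their place in the pathway, with earlier results of these data known, among them the low PHGDH and PSAT1 levels of FOXK1 knockout cells. All 9 were found, each under 1 gene identifier, and all 9 passed the filter on low values in every comparison. The 12 RNA-seq libraries came from K562, a human chronic myeloid leukaemia line with erythroid features, and the labels name no added agent. There were 3 clones in which the mutant allele of ASXL1 had been knocked out with CRISPR/Cas9, a chromatin regulator often mutated in myeloid leukaemia, and 3 parental K562 clones. There were also 2 cell pools with FOXK1 knocked out, 2 with FOXK2 knocked out and 2 SCR control pools. FOXK1 and FOXK2 are forkhead transcription factors. A pool can mix edited and unedited cells, and no label says that clones or pools were grown or harvested separately, so the p-values below measure the spread between these libraries, which may be technical.

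PHGDH, PSAT1 and PSPH act in that order to make serine from a glycolytic intermediate. SHMT enzymes then move a carbon from serine to folate, which gives glycine, and MTHFD and ALDH1L enzymes pass that carbon between its oxidation states for purine, thymidylate and methionine synthesis. The folate steps run in parallel in the mitochondrion (SHMT2, MTHFD2, MTHFD1L, ALDH1L2) and in the cytosol (SHMT1, MTHFD1). Several of these genes are known targets of ATF4, the transcription factor of the amino acid response, and proliferating leukaemia cells are known to use the pathway heavily.

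Promoters are shown for 3 enzymes whose transcripts were low together in FOXK1 and FOXK2 pools, with the 200 bases before the start, read 5′ to 3′ on the plus strand (RefSeq, GRCh38.p14). They lie at chr1:119711734-119711933 for PHGDH, chr9:78296925-78297124 for PSAT1 and chr2:74198415-74198614 for MTHFD2. Capitals mark CCAAT boxes, the sites of the general factor NF-Y.
PHGDH: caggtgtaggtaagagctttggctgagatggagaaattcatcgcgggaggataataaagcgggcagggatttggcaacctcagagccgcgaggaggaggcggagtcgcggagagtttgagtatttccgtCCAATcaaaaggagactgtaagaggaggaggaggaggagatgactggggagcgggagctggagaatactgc
PSAT1: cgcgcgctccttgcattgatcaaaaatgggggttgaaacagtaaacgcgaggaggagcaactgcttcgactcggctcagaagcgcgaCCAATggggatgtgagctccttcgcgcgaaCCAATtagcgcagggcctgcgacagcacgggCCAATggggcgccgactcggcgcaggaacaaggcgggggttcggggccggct
MTHFD2: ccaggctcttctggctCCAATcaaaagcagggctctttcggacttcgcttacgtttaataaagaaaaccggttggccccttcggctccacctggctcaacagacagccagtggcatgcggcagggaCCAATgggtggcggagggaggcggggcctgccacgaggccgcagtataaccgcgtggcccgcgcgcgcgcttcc
The CCAAT box stands 71 bases before the PHGDH start, 113, 83 and 52 bases before the PSAT1 start, and 184 and 74 bases before the MTHFD2 start. RefSeq windows of 250 bases before to 50 bases after the start were on hand for 6 of the 9 genes, 9 windows in all, and CCAAT was in at least 1 window of each of the 6, SHMT1 and MTHFD1 included. On either strand, it was in 34.6% of all 35116 windows. PSPH, SHMT2 and ALDH1L2 had no window.

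The forkhead core GTAAACA was in no window of these 6 genes and in 3.42% of all windows. The composite ATF4 and C/EBP element TGATGNAA was in 3.62% of all windows and, among these genes, in MTHFD1L alone, which has 4 listed windows. It is shown in capitals within 30 bases at chr6:150866346-150866375 on the plus strand, 129 bases before one of the listed starts and inside 3 of the 4 windows.
MTHFD1L: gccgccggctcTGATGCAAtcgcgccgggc
The E-box CACGTG, which MYC and related factors bind, was in windows of MTHFD1L and MTHFD1 and in 7.26% of all windows. These letters are a description of the reference and say nothing of whether a factor binds.

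Levels are given in FPKM, a read density scaled to transcript length and library depth, as the authors deposited them; the files used here hold no read counts, so the depth is unknown and no counting interval can be given. Summed FPKM per library was 824692 to 975657, and 13348 to 13681 genes reached 1 FPKM. The ASXL1 transcript was at 26.9 to 32.0 FPKM in mutant ASXL1 knockout clones and at 39.8 to 58.5 FPKM in parental clones, a level per gene that does not separate the alleles. FOXK2 was at 25.5 and 27.5 FPKM in FOXK2 pools, against 42.6 and 40.7 FPKM in SCR pools. FOXK1 was at 5.59 and 6.07 FPKM in FOXK1 pools, against 6.24 and 6.26 FPKM in SCR pools; a small CRISPR/Cas9 edit need not lower a transcript, so this level does not check the label. All 8 erythroid markers of K562 were present, at 13.0 FPKM or more in every library. Among markers of other cells, the B-cell marker MS4A1 was at 0, CD3E, COL1A1 and COL1A2 stayed at or below 1.29 FPKM, and the epithelial markers EPCAM and KRT19 were present at 65.5 to 104 and 49.4 to 108 FPKM in every library.

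In FOXK1 knockout pools, the serine synthesis transcripts and the mitochondrial folate transcripts were low, and the cytosolic folate transcripts were near the control. This comparison took part in the choice of the 9 enzymes, so its values are a description. PHGDH, the first enzyme of serine synthesis, was at 29.3 and 33.1 FPKM in FOXK1 pools, against 155 and 147 FPKM in SCR pools. The FOXK1 mean was 20.7% of the SCR mean, with a difference of -2.24 ± 0.08 (SE) in log2(FPKM + 1), the scale of every difference below. PSAT1, the second enzyme, was at 52.2 and 55.3 FPKM in FOXK1 pools, against 117 and 121 FPKM in SCR pools, a difference of -1.13 ± 0.05 (SE). PSPH, the phosphatase that releases serine, was at 9.45 and 7.54 FPKM in FOXK1 pools and at 15.8 and 15.5 FPKM in SCR pools. Both FOXK1 pools lay below both SCR pools for each of the 3 serine synthesis enzymes, and PHGDH stood furthest from its control. In bulk RNA, fewer cells with a transcript and less of it per cell cannot be told apart.

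**Figure D1:**
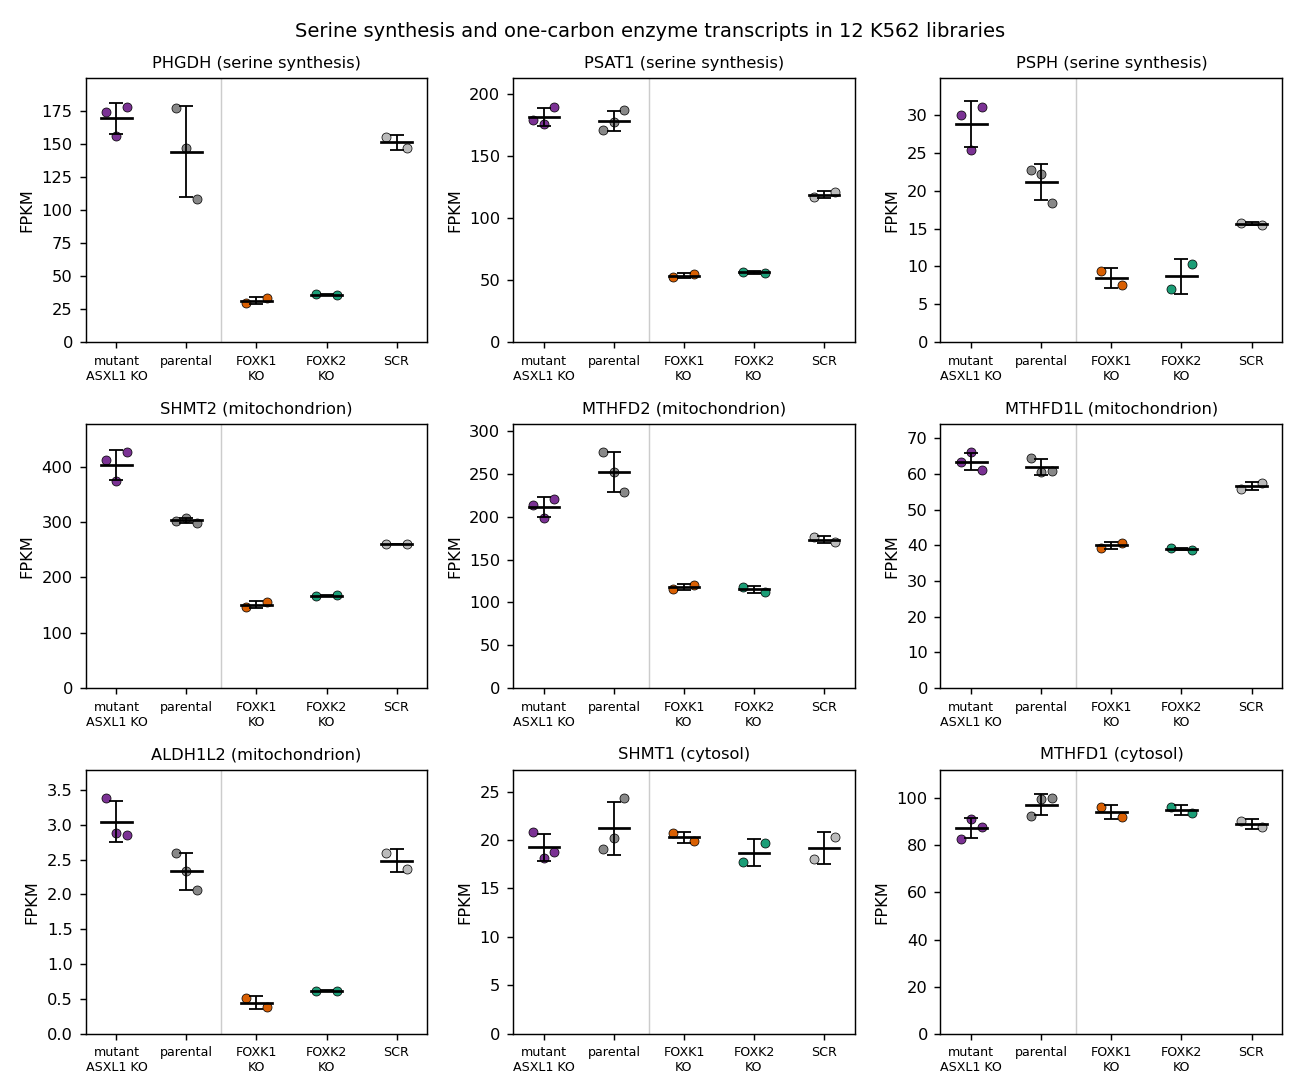
FPKM of the 9 transcripts (linear axis from 0, 1 panel each) in mutant ASXL1 knockout and parental clones (n = 3 each) and in FOXK1, FOXK2 and SCR pools (n = 2 each). Points are libraries, the bar is the group mean and the whiskers are the SD. The 4 FOXK pools lie below the other 8 libraries in 7 panels, and the 2 cytosolic enzymes at the bottom right do not show this. The share of all genes that separate in this way was not computed.

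Among the mitochondrial folate enzymes, SHMT2, which splits serine into glycine and a folate-bound carbon, was at 146 and 155 FPKM in FOXK1 pools, against 261 FPKM in each SCR pool. MTHFD2, the dehydrogenase and cyclohydrolase that follows SHMT2, was at 115 and 120 FPKM in FOXK1 pools, against 176 and 170 FPKM in SCR pools. MTHFD1L, which releases the carbon as formate, was at 39.3 and 40.7 FPKM in FOXK1 pools, against 55.9 and 57.4 FPKM in SCR pools. None of these groups overlapped. ALDH1L2, which oxidises formyl folate with the release of NADPH, was at 0.511 and 0.384 FPKM in FOXK1 pools, against 2.60 and 2.37 FPKM in SCR pools. The FOXK1 mean of ALDH1L2 was 18.0% of the SCR mean, while its log2 difference of -1.27 ± 0.16 (SE) understates this because of the added 1 FPKM. ALDH1L2 passed the filter of 1 FPKM through the SCR pools alone, with both FOXK1 pools below it, so counts without ALDH1L2 are also given below.

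The cytosolic enzymes behaved differently. SHMT1, the cytosolic counterpart of SHMT2, was at 20.7 and 19.9 FPKM in FOXK1 pools and at 18.0 and 20.3 FPKM in SCR pools, ranges that overlap. MTHFD1, which has 3 folate activities in 1 protein, was at 96.2 and 92.0 FPKM in FOXK1 pools and at 90.5 and 87.7 FPKM in SCR pools. Both FOXK1 pools lay above both SCR pools for MTHFD1. The differences were 0.08 ± 0.08 (SE) for SHMT1 and 0.08 ± 0.05 (SE) for MTHFD1, neither of them called.

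Since this comparison took part in the choice, nothing is read from the counts that follow. Over the 9 enzymes, 6 were called lower in FOXK1 pools (limma, adjusted p under 0.05 over 13697 genes), against 1.15% of all tested genes, and none was called higher, against 0.679%. Leaving aside ALDH1L2, 5 of the other 8 were called lower. PSPH, SHMT1 and MTHFD1 were not called. Both FOXK1 pools lay below both SCR pools for 7 of the 9, ALDH1L2 among them, and for 6 of the other 8, against 23.6% of all tested genes. The median difference was -0.79 over the 9 enzymes and 0.02 over all tested genes. With FOXK1 pool 1, FOXK1 pool 2, SCR pool 1 or SCR pool 2 left out, limma called 0 of the 9 and 0 genes in all, although 7 of the 9 had an unadjusted p under 0.05 each time and PHGDH lay between -2.32 and -2.15. With no filter on low values, 1 of the 9 was called, PHGDH. With all 12 libraries in 1 fit, 7 were called lower, PSPH among them.

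The FOXK2 knockout was compared with the same SCR pools, so its results share their controls with those of FOXK1 and are not independent of them. PHGDH was at 36.2 and 35.8 FPKM in FOXK2 pools, against 155 and 147 FPKM in SCR pools. That was a difference of -2.04 ± 0.05 (SE, limma adjusted p = 0.00701), with a FOXK2 mean at 23.8% of the SCR mean. PSAT1 was at 56.8 and 55.6 FPKM in FOXK2 pools, against 117 and 121 FPKM in SCR pools (-1.07 ± 0.05, SE, limma adjusted p = 0.0167). Both were called lower in FOXK2 pools. The SCR values in this test also took part in the choice of the enzymes, so its p-values are a description. PSPH was at 7.04 and 10.3 FPKM in FOXK2 pools and at 15.8 and 15.5 FPKM in SCR pools, and its difference of -0.80 ± 0.18 (SE) did not pass (limma adjusted p = 0.126). The FOXK2 pools differed more from each other in PSPH than in PHGDH or PSAT1, but both stayed below both SCR pools.

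Of the 4 mitochondrial enzymes, 3 were called lower in FOXK2 pools as well, with the same limit. SHMT2 was at 166 and 168 FPKM in FOXK2 pools, against 261 FPKM in each SCR pool (-0.64 ± 0.04, SE, limma adjusted p = 0.0184). MTHFD2 was at 118 and 112 FPKM in FOXK2 pools, against 176 and 170 FPKM in SCR pools (-0.58 ± 0.05, SE, limma adjusted p = 0.031). MTHFD1L was at 39.2 and 38.7 FPKM in FOXK2 pools, against 55.9 and 57.4 FPKM in SCR pools (-0.53 ± 0.05, SE, limma adjusted p = 0.0403). The groups did not overlap for any of these enzymes. ALDH1L2 was at 0.609 and 0.619 FPKM in FOXK2 pools and at 2.60 and 2.37 FPKM in SCR pools, and did not pass on the log2(FPKM + 1) scale (-1.11 ± 0.16, SE, limma adjusted p = 0.0694). As in the FOXK1 comparison, ALDH1L2 was tested only through its SCR levels.

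SHMT1 was at 17.7 and 19.7 FPKM in FOXK2 pools and at 18.0 and 20.3 FPKM in SCR pools, with a difference of -0.03 (95% interval -0.29 to 0.22). MTHFD1 was at 96.5 and 93.6 FPKM in FOXK2 pools and at 90.5 and 87.7 FPKM in SCR pools, with a difference of 0.09 (95% interval -0.04 to 0.23). Neither cytosolic enzyme passed the test (limma adjusted p = 0.873 and 0.379). In all, 5 of the 9 enzymes were called lower in FOXK2 pools, against 0.87% of 13672 tested genes, and none higher, against 0.146%. The choice of the enzymes used the same SCR pools, so these counts are a description. Leaving aside ALDH1L2, for 6 of the other 8 both FOXK2 pools lay below both SCR pools, against 24.8% of all tested genes. The median difference was -0.64 over the 9 and 0.01 over all tested genes. With FOXK2 pool 1, FOXK2 pool 2, SCR pool 1 or SCR pool 2 left out, limma called 0 of the 9, with 6 or 7 at an unadjusted p under 0.05, and PHGDH lay between -2.07 and -2.00. With no filter on low values limma called 0 of the 9, with 7 at an unadjusted p under 0.05. With all 12 libraries in 1 fit, 7 of the 9 were called lower, PSPH (adjusted p = 0.0396) and ALDH1L2 (adjusted p = 0.00304) among them.

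The authors' deposited table for FOXK2 over SCR gave a log2 fold change of -0.72 for PSPH, with an adjusted p of 3.54e-06, and -2.15 for ALDH1L2, with an adjusted p of 1.24e-26. Both enzymes therefore passed in the authors' deposited table and not in the test on FPKM.

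**Figure D2:**
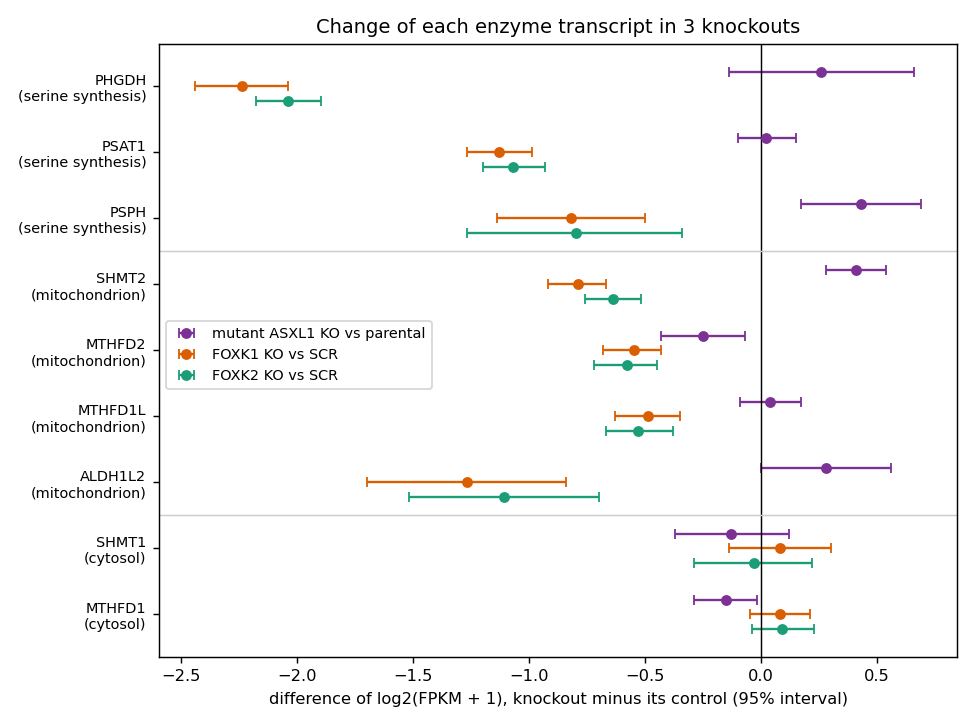
Difference of log2(FPKM + 1), knockout minus its own control, for each enzyme, with its 95% interval from limma, in mutant ASXL1 knockout clones (n = 3 against 3) and in FOXK1 and FOXK2 pools (n = 2 against 2 each). The FOXK1 and FOXK2 points lie lowest for PHGDH, at -2.24 and -2.04, and near 0 for the 2 cytosolic enzymes. FOXK1 and FOXK2 share the SCR pools, the FOXK1 values took part in the choice of the enzymes, and ALDH1L2 entered both FOXK fits through its SCR levels alone, so these intervals are a description there.

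The FOXK2 and FOXK1 knockouts were then compared directly, in a fit of the 6 pools, with the low FOXK1 values known. PHGDH was higher in both FOXK2 pools than in both FOXK1 pools, with a difference of 0.20 (95% interval 0.02 to 0.38, limma adjusted p = 0.762). SHMT2 differed by 0.15 (95% interval 0.04 to 0.27, limma adjusted p = 0.758). The intervals were -0.07 to 0.19 for PSAT1, -0.45 to 0.47 for PSPH, -0.16 to 0.10 for MTHFD2, -0.16 to 0.09 for MTHFD1L and -0.26 to 0.58 for ALDH1L2. For SHMT1 and MTHFD1 they were -0.33 to 0.11 and -0.11 to 0.14. Limma called 0 of the 9 enzymes, against 0.0356% of 14055 genes, and 2 of them, PHGDH and SHMT2, had an unadjusted p under 0.05. A p that misses the threshold does not show that the 2 knockouts act alike.

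In mutant ASXL1 knockout clones 2 of the 9 enzymes were called higher, beside 7.91% of all tested genes, and none lower, beside 14.4%. With 9 enzymes, nothing is read from these counts. SHMT2 was at 412, 374 and 426 FPKM in mutant ASXL1 knockout clones, against 302, 308 and 299 FPKM in parental clones. Every knockout clone lay above every parental clone, and the difference of 0.41 ± 0.06 (SE) passed the test (limma adjusted p = 0.00443). It also passed under all 14 alternatives tried, with adjusted p between 0.000322 and 0.0285. PSPH was at 30.0, 25.4 and 31.1 FPKM in mutant ASXL1 knockout clones, against 22.8, 22.2 and 18.4 FPKM in parental clones (0.43 ± 0.11, SE, limma adjusted p = 0.0332). The PSPH groups did not overlap, but its call was lost in 6 of the 14 alternatives, among them without knockout clone 1 (adjusted p = 0.11), knockout clone 3 (0.113), parental clone 2 (0.0749) or parental clone 3 (0.0591), and with no filter on low values (0.0818).

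The other serine synthesis enzymes did not pass. PHGDH was at 174, 156 and 178 FPKM in mutant ASXL1 knockout clones and at 177, 147 and 108 FPKM in parental clones. The parental clones spanned nearly the whole range of both groups, with a coefficient of variation of 24.2% against 6.78% in knockout clones, and the difference of 0.26 ± 0.17 (SE) had a limma adjusted p of 0.304. Without parental clone 3 the PHGDH difference was 0.07 (adjusted p = 0.664). PSAT1 was at 179, 176 and 190 FPKM in mutant ASXL1 knockout clones and at 171, 178 and 187 FPKM in parental clones, with a difference of 0.02 (95% interval -0.10 to 0.15, limma adjusted p = 0.78). PHGDH and PSAT1, the enzymes furthest from their controls among the serine synthesis genes of FOXK pools, thus had overlapping levels here.

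The folate enzymes other than SHMT2 stayed on the uncalled side of the test. MTHFD2 was at 214, 199 and 221 FPKM in mutant ASXL1 knockout clones and at 275, 252 and 229 FPKM in parental clones, with groups that did not overlap (-0.25 ± 0.08, SE, limma adjusted p = 0.0562). Without parental clone 3 the MTHFD2 difference was -0.32 and was called (adjusted p = 0.0248). MTHFD1 was at 82.9, 91.4 and 87.8 FPKM in mutant ASXL1 knockout clones and at 92.3, 99.7 and 100 FPKM in parental clones (-0.15 ± 0.06, SE, limma adjusted p = 0.101). With all 12 libraries in 1 fit, MTHFD2 and MTHFD1 were both called lower (adjusted p = 0.0188 and 0.0418). ALDH1L2 was at 3.38, 2.88 and 2.86 FPKM in mutant ASXL1 knockout clones and at 2.60, 2.33 and 2.06 FPKM in parental clones (0.28 ± 0.12, SE, limma adjusted p = 0.135). As deposited, MTHFD2 and MTHFD1 were thus lower and ALDH1L2 higher in every knockout clone than in every parental clone, without passing the test. Median-ratio scaling moved MTHFD2 to -0.18 and MTHFD1 to -0.09 (limma adjusted p = 0.173 and 0.283). It moved ALDH1L2 to 0.33 (limma adjusted p = 0.103). Whether these groups still separate after scaling was not examined. All knockout clones lay above all parental clones for 16.3% of all tested genes. The share that lay below was not computed.

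MTHFD1L averaged 63.5 ± 2.44 FPKM in mutant ASXL1 knockout clones and 61.9 ± 2.2 FPKM in parental clones (SD, n = 3 each; limma adjusted p = 0.664). SHMT1 averaged 19.2 ± 1.43 FPKM in mutant ASXL1 knockout clones and 21.2 ± 2.74 FPKM in parental clones (SD, n = 3 each; limma adjusted p = 0.418). Their ranges overlapped. The 2 enzymes called higher compare with 7.91% of 13597 tested genes called higher, and the 0 called lower, with 2 more enzymes at an unadjusted p under 0.05, compare with 14.4% called lower by limma. All knockout clones lay above all parental clones for 3 of the 9, against 16.3% of all tested genes, and the median difference was 0.04 over the 9 and -0.06 over all tested genes. Of all genes called in this comparison 35.4% were higher, and this share was 52.5% with median-ratio scaling and 56.4% with the library factors undone (each library divided by its own factor, an alternative chosen after seeing the data), while the 9 enzymes kept 2 higher and 0 lower under both.

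In the authors' deposited table for the mutant ASXL1 knockout over parental, SHMT1 had a log2 fold change of -0.23 (adjusted p 0.0368) and ALDH1L2 of 0.32 (adjusted p 0.0246). MTHFD2 had -0.12 (adjusted p 0.286) in the authors' deposited table. Mitochondrially encoded genes made up 10.7% to 11.0% of summed FPKM in mutant ASXL1 knockout clones and 13.3% to 15.0% in parental clones, and 3 of the 8 erythroid markers, LMO2, GATA1 and KLF1, were called lower in the knockout clones. Of the epithelial markers, KRT19 was at 51.6 ± 1.92 FPKM in mutant ASXL1 knockout clones and 94.6 ± 11.4 FPKM in parental clones (-0.86, limma adjusted p = 0.00215), and EPCAM was at 95.8 ± 7.52 FPKM in knockout clones and 73.7 ± 2.41 FPKM in parental clones (SD, n = 3 each; 0.37, limma adjusted p = 0.0115). KRT19 was thus lower and EPCAM higher in the knockout clones. In FOXK1 pools 3 of the 8 erythroid markers, HBG1, HBG2 and HBE1, were called higher than in SCR pools. Mitochondrially encoded genes made up 13.6% to 13.7% in FOXK1 pools and 13.1% to 14.2% in SCR pools. In FOXK2 pools HBG2 was at 21263 ± 1698 FPKM, against 13121 ± 536 FPKM in SCR pools (SD, n = 2 each), and limma called 0 of the 8 erythroid markers, with 4 at an unadjusted p under 0.05. The differences in FOXK2 pools were 0.69 for HBG2 (limma adjusted p = 0.0531) and 0.75 for HBG1 (limma adjusted p = 0.0742). LMO2 lay the other way, at -0.26 in FOXK1 pools and -0.29 in FOXK2 pools (limma adjusted p = 0.134 and 0.146). GATA1 was near its control, at 0.05 in FOXK1 pools and 0.02 in FOXK2 pools. The summed erythroid markers ranged from 9067 to 23693 FPKM over the libraries, most of it HBG2, which alone ranged from 8562 to 22840 FPKM. Their part in the enzyme levels was not tested.

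**Figure D3:**
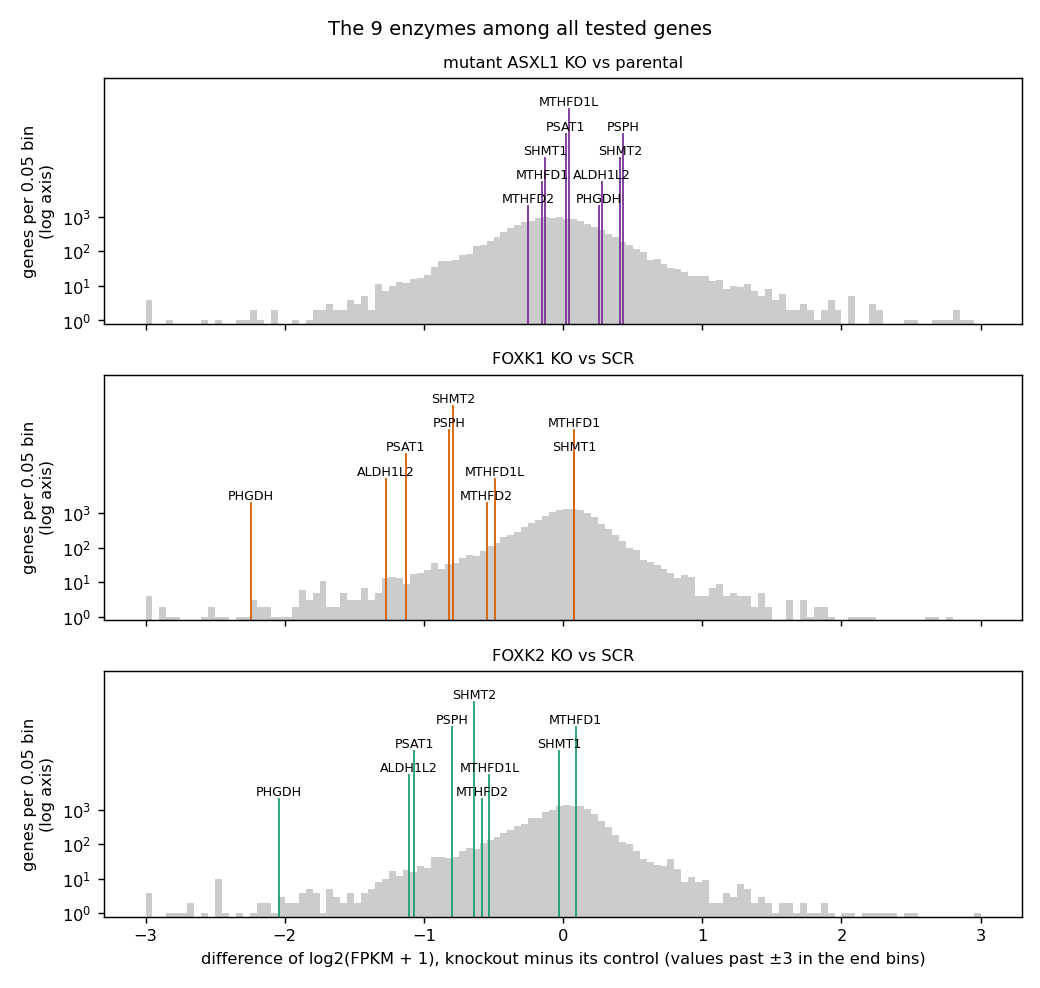
Distribution of log2(FPKM + 1) differences over all tested genes (grey, genes per bin of 0.05, log axis) for the mutant ASXL1 knockout against parental, FOXK1 against SCR and FOXK2 against SCR, with coloured lines at the 9 enzymes. The enzymes lie between -0.25 and 0.43 in the ASXL1 panel, and 7 of 9 lie within the lowest 5.12% of genes in the FOXK1 panel and the lowest 5.51% in the FOXK2 panel. The enzymes were chosen with these results known.

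The effect of the ASXL1 knockout on each enzyme was tested against that of FOXK2, each relative to its own control, in a fit of all 12 libraries. The ASXL1 effect minus the FOXK2 effect was 2.30 ± 0.23 (SE) for PHGDH, 1.09 ± 0.08 for PSAT1 and 1.23 ± 0.22 for PSPH (limma adjusted p = 0.000421, 4.9e-05 and 0.00626). Among mitochondrial enzymes it was 1.05 ± 0.08 for SHMT2, 0.56 ± 0.07 for MTHFD1L and 1.39 ± 0.18 for ALDH1L2 (limma adjusted p = 6.9e-05, 0.00137 and 0.00134). By this fit the effects on all 3 serine synthesis enzymes and 3 of the 4 mitochondrial ones differed between the knockouts. The SCR pools in it took part in the choice of the enzymes, so its values and counts are a description. ALDH1L2 reached 1 FPKM only outside the FOXK pools. MTHFD2 differed by 0.33 ± 0.10 (SE, limma adjusted p = 0.0576), and SHMT1 and MTHFD1 by -0.09 and -0.25 (limma adjusted p = 0.721 and 0.0632). In all, 6 of the 9 were called higher, against 6.15% of 14966 genes, and these 6 were also called with any 1 library left out. Against the FOXK1 effect the same 6 enzymes were called higher, against 6.09% of genes, with PHGDH at 2.50 (95% interval 1.99 to 3.01) and PSAT1 at 1.15 (0.98 to 1.32), given as a description. Clones and pools also differ in how they were made, which cannot be told apart from the knocked-out gene here.

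Ratios within a library do not depend on how libraries were scaled. SHMT2 over SHMT1, the mitochondrial over the cytosolic transcript, was 7.05 and 7.79 in FOXK1 pools, 9.36 and 8.56 in FOXK2 pools, and 14.4 and 12.8 in SCR pools. It was 19.8, 20.7 and 22.6 in mutant ASXL1 knockout clones, against 15.9, 15.3 and 12.3 in parental clones. The ratio was thus below the SCR pools in all 4 FOXK pools and above the parental clones in all 3 mutant ASXL1 knockout clones. MTHFD2 over MTHFD1 was 1.19 and 1.31 in FOXK1 pools, 1.22 and 1.20 in FOXK2 pools and 1.94 in each SCR pool, without overlap. It was 2.58, 2.18 and 2.52 in mutant ASXL1 knockout clones and 2.98, 2.52 and 2.29 in parental clones, which overlap. PHGDH over PSAT1 averaged 0.581 in FOXK1 pools, 0.640 in FOXK2 pools and 1.27 in SCR pools, so that within serine synthesis PHGDH was the lower of the pair in the FOXK pools and the higher in the SCR pools. It was 0.972, 0.891 and 0.936 in mutant ASXL1 knockout clones and 1.04, 0.828 and 0.577 in parental clones. The lowest parental clone lay within the range of the FOXK pools, 0.562 to 0.643. These ratios are descriptions of levels and were not tested.

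**Figure D4:**
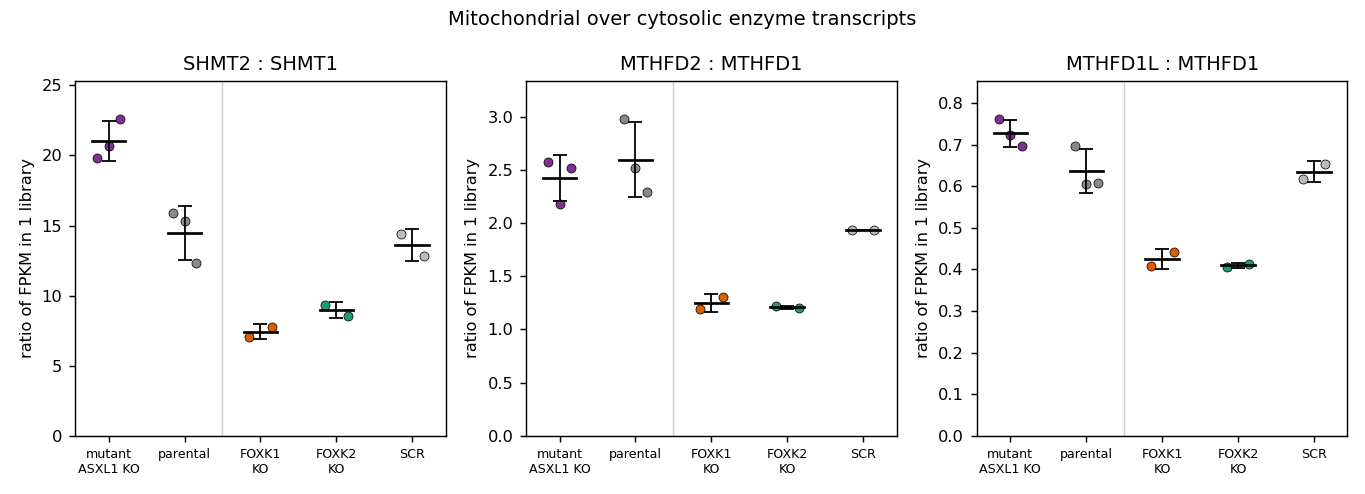
Ratio of FPKM within each library (linear axis from 0) for SHMT2 over SHMT1, MTHFD2 over MTHFD1 and MTHFD1L over MTHFD1, by group, with libraries as points, the mean as a bar and the SD as whiskers (n = 3, 3, 2, 2 and 2 from left to right). The 4 FOXK pools lie below the SCR pools in all 3 panels, and the mutant ASXL1 knockout clones all lie above the parental clones in the SHMT2 panel and overlap them in the others.

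Summed by role, the serine synthesis transcripts came to 93.4 ± 3.5 FPKM in FOXK1 pools, 101 ± 1.16 FPKM in FOXK2 pools and 285 ± 2.53 FPKM in SCR pools (SD, n = 2 each). The mitochondrial folate enzymes summed to 308 ± 11.5 FPKM in FOXK1 pools, 322 ± 2.13 FPKM in FOXK2 pools and 493 ± 2.74 FPKM in SCR pools (SD, n = 2 each). The cytosolic enzymes summed to 114 ± 3.51 FPKM in FOXK1 pools, 114 ± 0.691 FPKM in FOXK2 pools and 108 ± 0.39 FPKM in SCR pools (SD, n = 2 each). The serine synthesis sum was thus further below its control than the mitochondrial sum in both knockouts, and the cytosolic sum was close to it. Between ASXL1 groups, the mitochondrial sum was 682 ± 35.4 FPKM in mutant ASXL1 knockout clones and 619 ± 27.1 FPKM in parental clones, and the serine synthesis sum was 380 ± 21.1 FPKM in mutant ASXL1 knockout clones and 344 ± 29.5 FPKM in parental clones (SD, n = 3 each). Those ranges overlapped for both sums. The cytosolic sum was 107 ± 2.84 FPKM in mutant ASXL1 knockout clones and 119 ± 6.61 FPKM in parental clones (SD, n = 3 each), at 104 to 109 FPKM against 111 to 124 FPKM, without overlap. This gap was in FPKM as deposited, and no other scaling was tried on the sums. MTHFD1, the larger part of the cytosolic sum, differed by -0.15 as deposited and by -0.09 with median-ratio scaling.

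Across the study, PHGDH averaged 169 ± 11.5 FPKM in mutant ASXL1 knockout clones, 144 ± 34.9 in parental clones, 31.2 ± 2.7 in FOXK1 pools, 36.0 ± 0.284 in FOXK2 pools and 151 ± 5.1 in SCR pools (SD, n = 3, 3, 2, 2 and 2). The knockout and SCR levels stood next to each other at the top of that order, and the parental range overlapped both. For 7 enzymes, all but SHMT1 and MTHFD1, each of the 4 FOXK pools lay below each of the other 8 libraries. The share of all genes that separate in this way was not computed. The enzymes were chosen with low FOXK1 values known, so this count is a description. The 2 control groups were not alike in every enzyme: PSAT1 averaged 179 ± 7.69 FPKM in parental clones and 119 ± 2.76 FPKM in SCR pools, and MTHFD2 averaged 252 ± 23.0 FPKM in parental clones and 173 ± 3.83 FPKM in SCR pools. These levels come from tables whose common scaling is not stated. Per kilobase, SHMT2 was the most abundant of the 9 in all 12 libraries and ALDH1L2 the least, from 0.384 to 3.38 FPKM. The highest library exceeded the lowest by 8.79 times for ALDH1L2 and 6.07 times for PHGDH, against 1.37 times for SHMT1 and 1.21 times for MTHFD1. No annotated pseudogene of these genes exceeded 0.276 FPKM.

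Genes whose pattern over the 12 libraries was most like that of PHGDH, among 9249 genes at 5 FPKM or more on average, were PABPC1L (Pearson r = 0.990), ASS1 (0.983), RCSD1, OGT and ATP2A3. ASS1, the argininosuccinate synthase of arginine synthesis, averaged 3.72 FPKM in FOXK1 pools, 4.76 FPKM in FOXK2 pools and 32.4 FPKM in SCR pools. Most like MTHFD2 were CARS (r = 0.992), LGALS1 (0.985), PTPRVP, FAM178B and ZNF595. CARS, the cytosolic cysteinyl-tRNA synthetase, averaged 40.4 FPKM in FOXK1 pools, 42.5 FPKM in FOXK2 pools and 63.6 FPKM in SCR pools. The 12 libraries share 5 groups, in which the FOXK pools stand apart, so these r describe group levels and carry no test.

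The neighbouring pathways were described by 7 lists chosen with earlier results known: serine and glycine breakdown, other folate enzymes, folate and serine carriers, the methionine cycle, purine synthesis, serine-using lipid enzymes and known regulators. In FOXK1 pools limma called 0 of their 51 tested genes, with 8 at an unadjusted p under 0.05, and in FOXK2 pools 0 of 51, with 9. So few genes were called at all (1.15% lower and 0.679% higher in FOXK1 pools, 0.87% lower and 0.146% higher in FOXK2 pools) that a count of 0 says nothing particular of these lists. Median differences of the lists lay between -0.15 and 0.09 in FOXK1 pools and between -0.16 and 0.10 in FOXK2 pools. ATF4, singled out for its known role, was at 391 and 404 FPKM in FOXK1 pools and 402 and 417 FPKM in FOXK2 pools, against 480 and 447 FPKM in SCR pools. Both groups lay below the SCR pools, and neither difference passed (-0.22, limma adjusted p = 0.109 for FOXK1, and -0.18, limma adjusted p = 0.201 for FOXK2).

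In mutant ASXL1 knockout clones 8 of 52 tested genes of these lists were called higher and 7 lower, beside 7.91% higher and 14.4% lower over all tested genes. The alternatives were not examined for single genes of these lists. Median-ratio scaling moved the median of all tested genes up by 0.06, and undoing the library factors by 0.08. The size of the small falls below therefore depends on the scaling. Of 11 other folate enzymes, ALDH1L1, the cytosolic counterpart of ALDH1L2, rose to 5.72 ± 0.217 FPKM in knockout clones, against 1.56 ± 0.188 FPKM in parental clones (SD, n = 3 each; limma adjusted p = 0.000948). MTHFD2L, the mitochondrial paralogue of MTHFD2, and TYMS, thymidylate synthase, fell by 0.28 and 0.20 (limma adjusted p = 0.0419 and 0.0395). Of 6 carriers, the folate transporters SLC46A1 and SLC19A1 rose, by 0.47 and 0.41 (limma adjusted p = 0.0191 and 0.0253). In the methionine cycle, 1 of 8 rose, MTRR, which reactivates methionine synthase, by 0.44, and 2 fell, MAT2A, which makes S-adenosylmethionine, by 0.28, and AHCY by 0.17 (limma adjusted p = 0.00378, 0.00426 and 0.0255).

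Of 13 purine synthesis genes, IMPDH2 rose by 0.21, and GMPS and ATIC fell by 0.27 and 0.23 (limma adjusted p = 0.0165, 0.019 and 0.0235). Of 4 serine-using lipid enzymes, PTDSS1, a phosphatidylserine synthase, rose by 0.20 (limma adjusted p = 0.0383), and limma called 0 of 5 serine and glycine breakdown genes. Of 5 regulators, MYC and NFE2L2 rose by 0.32 and 0.30, and EHMT2 fell by 0.36 (limma adjusted p = 0.00817, 0.0146 and 0.03). ATF4 averaged 452 ± 14.6 FPKM in mutant ASXL1 knockout clones and 463 ± 21.1 FPKM in parental clones (SD, n = 3 each; limma adjusted p = 0.661).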

How the data were processed

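RNA was sequenced from 12 K562 libraries. The authors deposited FPKM per gene in a table per comparison, with their own log2 fold changes and adjusted p-values beside them. The submitters' processing notes name TopHat, Bowtie, RSEM, Cufflinks, edgeR and GRCh38.p10, without versions or order. SCR values were identical in both FOXK tables. In every library 100.0% of values above 0 and up to 3 FPKM were whole multiples, within 0.1 of a step, of 1 step per library (0.009503 to 0.01036 FPKM). These steps did not depend on the gene, so they are not reads and no count test was run.

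Tests used limma 3.58.1 (R 4.3.3) with a variance trend on log2(FPKM + 1), two-sided, with Benjamini-Hochberg adjustment over all tested genes and a threshold of 0.05. Genes entered a fit if 1 FPKM was reached in a number of libraries no smaller than its smaller group. Fits held a knockout and its control, FOXK2 against FOXK1 in 6 pools and differences of effects in 12 libraries. Scripts were tested on simulated data. The 9 enzymes and all lists were chosen with earlier results of these data known. The text names all 9, the targeted genes, up to 2 called genes per list and direction, and the 5 genes most like PHGDH and MTHFD2. Promoters came from RefSeq, whose motifs were chosen after the data were seen. Alternatives were pseudocount, filter, scaling, trend, replicate block, libraries fitted, leaving out each library and, chosen after seeing the data, dividing each library by the factor its step gives. A second sheet of the ASXL1 table was not used. One marker gene is not reported here.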

Additional observations from a re-analysis of the deposited data

How the results depend on the processing

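No count test was run, because whole reads could not be recovered from the FPKM. Over 810 combinations of enzyme, comparison and alternative, 709 kept their direction and side of the threshold, 73 lost the call, 16 gained it and 12 changed sign. This total pools called and uncalled differences. Each enzyme called in FOXK1 or FOXK2 against SCR lost its call in 4 to 7 of 12 alternatives, those that left 1 pool in a group among them. With no filter on low values, the ASXL1 comparison called 1947 genes and 1 enzyme, FOXK1 against SCR 10 genes and 1 enzyme, FOXK2 against SCR 0 genes and 0 enzymes (limma, 3496 genes and 7 enzymes at an unadjusted p under 0.05), and FOXK2 against FOXK1 2 genes. Without the variance trend, FOXK1 against SCR called 69 genes and 3 enzymes, FOXK2 against SCR 52 genes and 3 enzymes, and FOXK2 against FOXK1 12 genes. With all 12 libraries in the fit, ASXL1 called 4005 of 13597 genes, 2554 of them lower, and 4 enzymes, 2 of them lower. FOXK1 called 422 genes and 7 enzymes, and FOXK2 360 genes and 7 enzymes (PSPH added in both, ALDH1L2 in FOXK2). FOXK2 against FOXK1 called 1 gene.

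Same-numbered libraries did not deviate together over all genes (correlations -0.10 to 0.05). With 2 pools per group the 2 deviations mirror each other, so the 2 correlations of a pool comparison are the same value. This is a weak check of whether the numbers pair the pools, and no conclusion is drawn from it. With the replicate block, ASXL1 called 1824 genes and 1 enzyme (PSPH lost, adjusted p = 0.073), FOXK1 37 genes and 3 enzymes, FOXK2 39 genes and 2 enzymes, and FOXK2 against FOXK1 2 genes.

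Leaving out 1 library at a time, ASXL1 called 1287 to 2699 genes and 1 to 2 enzymes. FOXK1 against SCR and FOXK2 against SCR each called 0 genes and 0 enzymes every time (limma, 1896 to 2492 and 1497 to 2312 genes at an unadjusted p under 0.05). A fit of 1 pool against 2 assumes that the lone pool varies like the others. FOXK2 against FOXK1 called 0 to 10 genes, and the effect differences 1288 to 2855 for FOXK1 and 1124 to 2702 for FOXK2. Uncalled differences changed sign within these ranges: PSAT1 in ASXL1 (-0.01 to 0.06), SHMT1 in FOXK1 (0.00 to 0.16), SHMT1 in FOXK2 (-0.12 to 0.05), PSPH, MTHFD1 and MTHFD2 in FOXK2 against FOXK1 (-0.23 to 0.26, -0.02 to 0.05 and -0.06 to 0.00), and SHMT1 in ASXL1 minus FOXK2 (-0.17 to 0.01). The cause of these changes was not tested. Upper-quartile scaling put the higher share of calls at 26.3% in FOXK2 pools, against 14.4%. Undoing the library factors put it at 55.3% for ASXL1 minus FOXK1, against 36.4%, and at 54.4% for ASXL1 minus FOXK2, against 39.5%. The depth is unknown, so no level carries a counting error.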
